A study of Mus musculus with 4 samples.

Results

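Core pluripotency genes and Dppa genes were examined in mouse embryonic stem cells (mESCs) that had lost SNF2L, 1 of the 2 alternative ATPases of the imitation switch (ISWI) chromatin remodelers. The 9 genes are Pou5f1, Sox2, Sall4, Lin28a, Utf1, Dppa2, Dppa3, Dppa4 and Dppa5a. They were chosen by name from a table of 24594 genes, and all 9 were among the 13840 genes with enough reads to be tested. Poly(A) RNA had been sequenced in 2 wild-type (WT) libraries and 2 libraries of the Snf2l knock-out. Both genotypes are mESCs of 129S6/SvEvTac background with no treatment. They were kept in serum with leukemia inhibitory factor. The methods describe deletion lines made with Cas9 from which 1 clone was kept per genotype, so that an effect of losing SNF2L and a property of that clone cannot be told apart. The methods call the RNA-seq replicates independent, and the labels do not say whether they were separate cultures of the clone, so the p-values measure only the spread between these libraries.

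The factors OCT4 (encoded by Pou5f1) and SOX2 bind DNA side by side and hold mESCs in the pluripotent state together with SALL4, a zinc finger protein. UTF1 is a chromatin-bound protein whose gene is a classical target of OCT4 and SOX2, and LIN28A is an RNA-binding protein that blocks the maturation of let-7 microRNAs. The Dppa genes are named for their expression in early embryos and pluripotent cells but belong to different families. DPPA2 and DPPA4 are related SAP-domain proteins that act as a pair at CpG-rich promoters and upstream of genes of the 2-cell embryo, DPPA5A is a KH-domain protein, and DPPA3 (also called STELLA or PGC7) limits maintenance DNA methylation by holding UHRF1 off chromatin.

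Of the 9 genes, only Dppa3 changed, and it fell to 54.3% of its WT level. The genes of the OCT4, SOX2, SALL4 and LIN28A proteins differed by 0.064 or less on the log2 scale in either direction. Utf1 and Dppa5a were higher in both knockout libraries, by 0.32 and 0.25 on the log2 scale, but neither passed the test. Dppa2 and Dppa4 were lower in both knockout libraries, by small amounts that did not pass it either. A gene was called changed at an adjusted p under 0.05 in edgeR's quasi-likelihood test, which called 9.21% of all genes tested, and 5.21% as lower. The 1 call among 9 genes is near that background, and by the stricter rule of the study (adjusted p under 0.01 with a change over 2-fold), which 0.99% of genes met, 0 of the 9 were differentially expressed. By edgeR 3 of the 9 had an unadjusted p under 0.05, as had 22.1% of all genes tested. DESeq2 also gave 0 by the stricter rule. Without knockout replicate 2 the number was 1, since Dppa3 then reached a log2 fold change of -1.05 (adjusted p = 1.76e-07). The median log2 fold change was 0.0083 over the 9 genes and 0.0002 over all genes tested.

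The libraries held between 13771642 and 15608803 counts, and scaling factors lay between 0.989 and 1.01. Smarca1, the gene of SNF2L, was at 620 and 626 counts in WT libraries against 37 and 31 after knockout, so that the genotype labels matched the targeted transcript. Chromosome 8 carried a median log2 fold change of -0.51 over 754 tested genes, and none of the 9 genes lies on it.

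The sequences that bear on these genes are those before their starts and, for Dppa3, the part that could be confused with another copy. RefSeq (GRCm38.p6) start sites with sequence were at hand for 4 of the 9 genes, Pou5f1, Sox2, Lin28a and Utf1. Lin28a is left out because a further start lies upstream of its window. For the other 3 genes the 150 bases before the outermost of the RefSeq and GENCODE M21 starts are shown on the plus strand (the RefSeq start for Sox2, the GENCODE start for Pou5f1 and Utf1), with each GC box (GGGCGG, searched on both strands) in capitals. These are Pou5f1 (chr17:35505868-35506017), Sox2 (chr3:34649845-34649994) and Utf1 (chr7:139943639-139943788), the 3 genes of this group that follow Dppa5a as the most highly expressed.
Pou5f1: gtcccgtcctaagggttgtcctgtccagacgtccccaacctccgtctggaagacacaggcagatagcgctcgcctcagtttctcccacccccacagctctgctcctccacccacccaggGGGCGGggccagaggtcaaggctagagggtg
Sox2: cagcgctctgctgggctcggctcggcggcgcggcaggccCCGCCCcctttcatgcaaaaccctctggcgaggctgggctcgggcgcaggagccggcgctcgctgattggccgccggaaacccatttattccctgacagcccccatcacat
Utf1: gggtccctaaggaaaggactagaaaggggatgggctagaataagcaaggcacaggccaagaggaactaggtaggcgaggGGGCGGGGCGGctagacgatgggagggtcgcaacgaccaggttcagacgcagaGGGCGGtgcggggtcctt
Pou5f1 and Sox2 have 1 GC box each and Utf1 has 3, of which 2 overlap, whereas 28.6% of 32851 windows of the same length before RefSeq starts hold at least 1. The octamer ATGCAAAT, a word bound by POU factors, was in none of the 3 windows (0.998% of all windows), nor was TATAAA (7.57% of all windows).

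Dppa3 lies on chromosome 6 (122626424 to 122630271, plus strand). Its transcript has a near-copy on chromosome X, the pseudogene Dppa3-ps, which differs at 8 of 451 aligned bases (98.2% identity). The first 240 bases of the Dppa3 coding sequence (GRCm38, from chr6:122626523 over its first exons) are shown with the 5 bases at which the pseudogene differs in capitals.
Dppa3: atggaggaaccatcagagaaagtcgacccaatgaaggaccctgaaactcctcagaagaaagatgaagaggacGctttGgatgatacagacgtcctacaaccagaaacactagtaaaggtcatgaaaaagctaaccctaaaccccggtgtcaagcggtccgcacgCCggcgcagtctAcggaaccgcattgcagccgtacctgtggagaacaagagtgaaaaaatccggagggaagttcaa
Of all stretches of 50 bases in Dppa3 transcripts, 16.5% occur word for word in a transcript of another gene. The search covered both strands, and a read from such a stretch cannot be assigned with certainty by its bases alone. This share was 38.6% for Dppa5a, 31.3% for Dppa4, 29.1% for Dppa2 and 10.1% for Pou5f1. It was 7.64% for Sall4, 4.72% for Lin28a and 0 for Sox2 and Utf1. For Pou5f1, Sall4 and Lin28a the share includes RNAs annotated on the opposite strand at the same place. These overlap 317, 526 and 234 exonic bases, and only the strand could tell their reads apart. Whether counting used the strand is not stated.

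To compare the genes with each other, counts were expressed per kb of gene length after scaling to library size (RPKM). In WT cells the order of levels was Dppa5a, Pou5f1, Utf1, Sox2, Lin28a, Sall4, Dppa4, Dppa2 and Dppa3. Utf1 and Sox2 overlapped between libraries and cannot be ordered, and every other pair of neighbours in this order was separate in the 2 WT libraries. With 2 libraries no test between genes was run.
Dppa5a, on chromosome 9, had 956 and 1093 RPKM in WT and was 7th among all 13840 genes tested. Pou5f1, on chromosome 17, followed with 528 and 594 RPKM and was 26th. Utf1, on chromosome 7, had 213 and 249 RPKM.
These levels place the KH-domain gene Dppa5a 1.82-fold above Pou5f1 per kb. Sox2, a gene of a single exon on chromosome 3, had 216 and 209 RPKM, and Lin28a, on chromosome 4, had 156 and 152 RPKM. Sall4, on chromosome 2, had 72.3 and 66.9 RPKM.
The paired factors Dppa4 and Dppa2, which lie 16.0 kb apart on chromosome 16, were close in level, with 56.4 and 57.2 RPKM for Dppa4 and 44.6 and 44.4 RPKM for Dppa2. Dppa3 was the lowest, at 19.7 and 23.2 RPKM, which was place 2851 among all genes tested. Of the 9 genes, 8 were above the 90th percentile of all tested genes by this measure, and Dppa3 was at 79.4. The order of the 9 means was the same in the knockout, where Utf1 and Sox2 no longer overlapped.

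**Figure D1:**
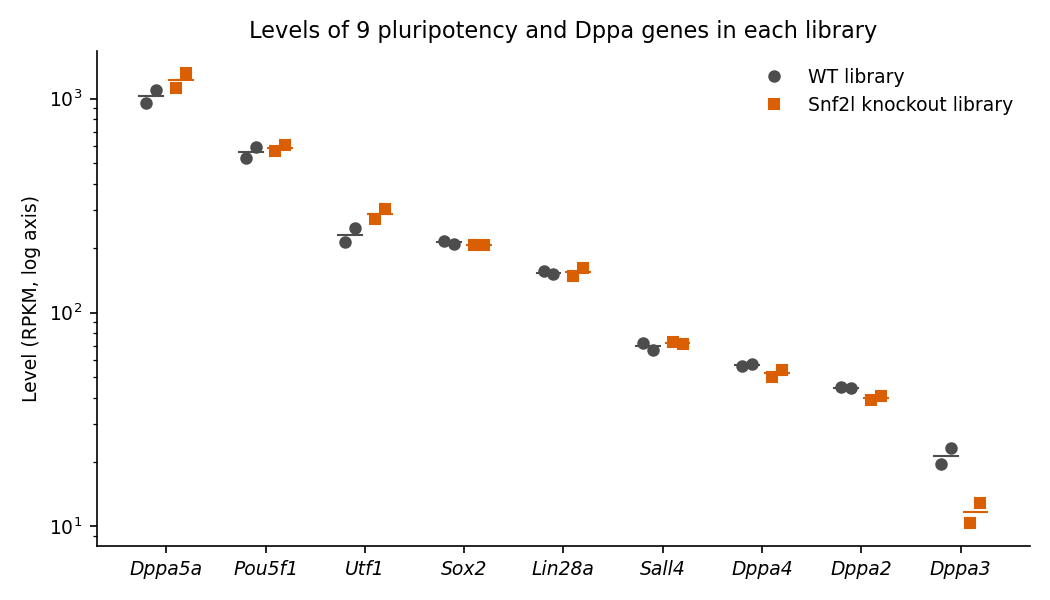
Level of each of the 9 genes in each library, in RPKM on a log axis, with WT libraries as circles, Snf2l knockout libraries as squares and a bar at the mean of the 2 libraries of a genotype. Dppa5a is highest at about 1024 RPKM in WT, and Dppa3 is lowest and is the gene whose knockout libraries lie furthest below its WT libraries.

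The core factors were examined first in the comparison of genotypes, as counts scaled to library size (CPM). Pou5f1 had 1188 and 1336 CPM in WT and 1275 and 1364 CPM in the knockout. The log2 fold change of Pou5f1 was 0.064 (95% interval -0.12 to 0.24, adjusted p = 0.727, edgeR). The libraries of the 2 genotypes overlapped.
Sox2, the DNA-binding partner of OCT4, had 445 and 430 CPM in WT and 424 and 425 CPM in the knockout, where both libraries lay just below WT. The log2 fold change was -0.04 (95% interval -0.22 to 0.13, adjusted p = 0.813, edgeR). Per kb, Pou5f1 was 2.64 ± 0.283 times Sox2 in WT and 2.84 ± 0.129 times Sox2 in the knockout (SD, n = 2 each), a difference within the spread of the WT libraries.
Sall4 had 400 and 370 CPM in WT and 403 and 396 CPM in the knockout, overlapping between genotypes. Its log2 fold change was 0.052 (95% interval -0.13 to 0.23). Lin28a had 623 and 606 CPM in WT and 591 and 645 CPM in the knockout, so that the WT libraries lay between the knockout libraries, and its log2 fold change was 0.0083 (95% interval -0.17 to 0.19). For Pou5f1, Sox2, Sall4 and Lin28a the intervals leave out a change of 0.25 or more in either direction. The sign of the fold change of Pou5f1, Sall4 and Lin28a turned when a single library was left out, and that of Lin28a also under another scaling.

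Utf1 and Dppa5a stood highest among the 9 fold changes. Utf1 had 262 and 305 CPM in WT and 334 and 374 CPM in the knockout, and the genotypes did not overlap. The means were 283 ± 30.9 CPM for WT and 354 ± 28.4 CPM for the knockout (SD, n = 2 for both). The test was not passed, at a log2 fold change of 0.32 (SE 0.097, 95% interval 0.11 to 0.53, adjusted p = 0.0526, edgeR). The call depended on the processing, since Utf1 passed with upper-quartile scaling (adjusted p = 0.0423) and with total counts (adjusted p = 0.0397). It also passed without knockout replicate 1 (log2 fold change 0.40, adjusted p = 0.00170), while the adjusted p was 0.579 without WT replicate 1. Relative to Pou5f1, the level of Utf1 per kb was 0.411 ± 0.0107 in WT and 0.491 ± 0.0161 in the knockout (SD, n = 2 each). This ratio draws on the same counts and was not tested.
Dppa5a had 592 and 676 CPM in WT and 691 and 813 CPM in the knockout, where the lower knockout library was just above the higher WT library. Its log2 fold change was 0.25 (SE 0.097, 95% interval 0.040 to 0.45, adjusted p = 0.142, edgeR). Without knockout replicate 1 it was 0.36 with an adjusted p of 0.00178, and it was 0.13 without knockout replicate 2.

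The pair of SAP-domain genes was slightly lower in the knockout. Dppa2 had 109.2 and 108.6 CPM in WT and 95.5 and 99.9 CPM in the knockout, and both knockout libraries lay below WT. Its log2 fold change was -0.16 (95% interval -0.35 to 0.037, adjusted p = 0.341, edgeR). Dppa4 had 93.7 and 95.1 CPM in WT and 83.3 and 89.2 CPM in the knockout, again without overlap. Its log2 fold change was -0.13 (95% interval -0.33 to 0.067, adjusted p = 0.455, edgeR). The ratio of Dppa4 to Dppa2 per kb was 1.28 ± 0.018 in WT and 1.30 ± 0.021 in the knockout (SD, n = 2 each). Between genotypes 6 of the 9 genes did not overlap, 2 above WT and 4 below, which is to be read against 50.5% of all genes tested.

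Reads of Dppa3 numbered 239 and 317 in the WT libraries against 145 and 177 after knockout. Scaled to library size these are 17.6 and 20.7 CPM in WT and 9.24 and 11.5 CPM in the knockout, and the genotypes did not overlap. The mean level of Dppa3 fell to 10.4 ± 1.61 CPM from 19.12 ± 2.21 CPM (SD, n = 2 for both). The log2 fold change was -0.88 (SE 0.148, 95% interval -1.20 to -0.57, adjusted p = 0.00143, edgeR), and the difference was larger than the spread between replicates. Of all genes tested, 199 (1.44%) had a log2 fold change this low or lower. The fall passed the test under every alternative scaling, filter and tool and without any 1 library, at an adjusted p of at most 0.00461 and with log2 fold changes from -1.05 to -0.73. In poly(A) RNA of a whole culture, fewer cells that express a gene and less RNA per cell cannot be told apart. Whether the fold change of Dppa3 differs from that of the other 8 genes was not tested.

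**Figure D2:**
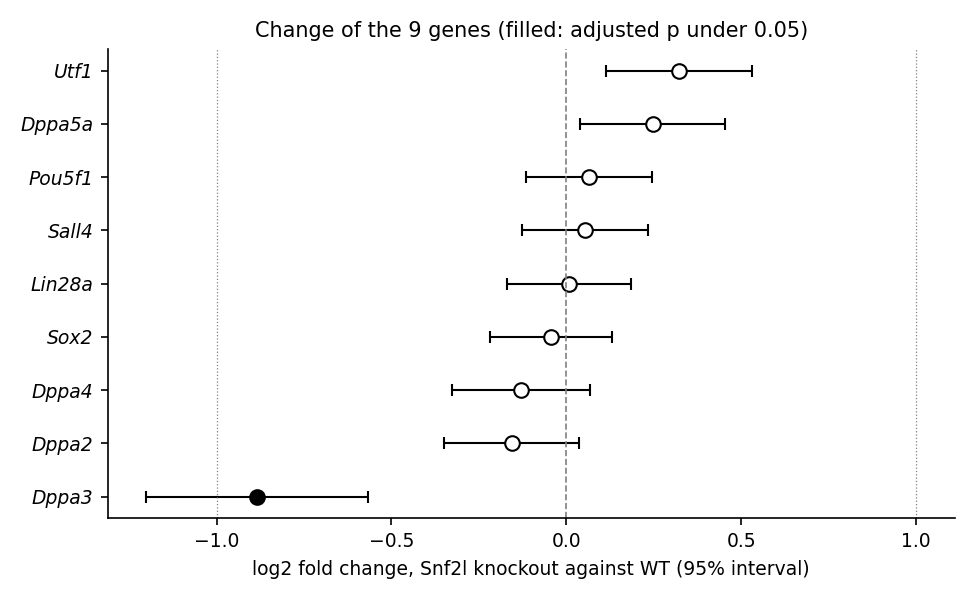
The log2 fold change of each gene in the Snf2l knockout against WT, with its 95% interval from the edgeR fit as bars, a filled point where the adjusted p was under 0.05, and dotted lines at a 2-fold change. Dppa3 at -0.88 is the only filled point, and the other 8 genes lie between -0.16 and 0.32.

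The genes with the pattern most like that of Dppa3 over the 4 libraries were sought among 7529 genes with a mean of at least 20 CPM, by the distance between log2 CPM values centred on each gene's mean. They were Zic2 (distance 0.107, log2 fold change -0.92), a zinc finger gene of the formative state, then Fnta (0.175, -0.80) and Psmb10 (0.182, -0.72), both of which lie on chromosome 8. A pattern over 4 libraries mostly restates the difference between genotypes.

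Dppa3 sits in a cluster of genes active in pluripotent cells, with Nanog, Gdf3 and Slc2a3. To see whether its fall was shared, the 3 tested genes on either side were examined. Nanog, 77.2 kb away and central to the naive state, averaged 464 ± 15.9 CPM in WT cells against 465 ± 12.5 CPM after knockout (SD, n = 2 for both), with a log2 fold change of 0.0006 (adjusted p = 0.998, edgeR). Gdf3, a TGF-beta family ligand 16.3 kb away, was lower in both knockout libraries at -0.24 (adjusted p = 0.142). Slc2a3, the glucose transporter GLUT3, was at 0.11. The 1 neighbour that changed was Apobec1, a cytidine deaminase gene 23.4 kb away, which rose from 9.22 ± 0.675 to 13.2 ± 0.445 CPM (log2 fold change 0.52, SE 0.142, adjusted p = 0.0316, edgeR). No tested neighbour of Dppa3 passed the test as lower.
Around all 9 genes, 48 neighbours were tested, of which 4 (8.33%) passed, close to the background. The others were Sh3bgrl3 near Lin28a (0.38, adjusted p = 0.0336), Kndc1 near Utf1 (0.61, adjusted p = 0.0398) and Dzip3 near Dppa2 and Dppa4 (-0.73, adjusted p = 0.00107). Kndc1 lies 2.32 kb from Utf1. Of these 4 calls only that of Dzip3 was kept under all 13 alternatives. With DESeq2 and without WT replicate 1 the others were lost, with an adjusted p for Apobec1 of 0.169 and 0.0573.

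**Figure D3:**
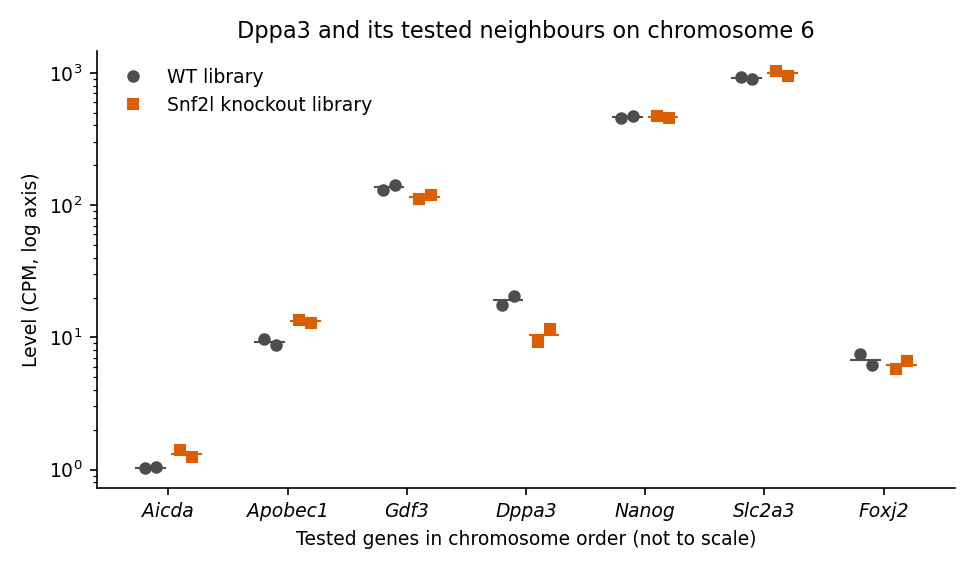
Level in each library of Dppa3 and the 3 tested genes on either side of it on chromosome 6, in CPM on a log axis, with WT libraries as circles, knockout libraries as squares and bars at the means. Dppa3 is the gene with the widest gap between genotypes, while Nanog stays at 464 and 465 CPM.

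The genes that work with these factors were then examined in 9 lists, which share 8 genes with each other. Of 108 genes tested in them, 32 (29.6%) passed, against 9.21% of all genes tested, and the counts of each list are to be read against that share. Of the 32, 13 were higher, 19 were lower and 4 lie on chromosome 8. The lists were chosen with earlier results known, so the larger share is a description. Of the 32 calls, 16 were lost under at least 1 alternative, and among the genes named below Igf2bp2 was lost under 7, Zfp57 under 6 and Klf4 under 5 of 13. Sox3, Tex19.1 and Wnt8a were lost under 4, and Hmga2, Sox18 and Zscan4f under 3. Usp17la was lost under 2, and Lin28b and Tcl1 under 1. For Wnt8a, Zscan4f and Usp17la only 11 alternatives gave a test. Of 15 target genes of OCT4 and SOX2, 3 fell and none rose, with a median of -0.0014. These were Lefty2 (-1.12) and Lefty1 (-0.67), both inhibitors of Nodal signaling, and Zfp42 (-0.60), a pluripotency marker on chromosome 8. Lefty2 went from 28.0 ± 1.41 CPM down to 12.9 ± 1.87 CPM (SD, n = 2 for both, adjusted p = 1.19e-04, edgeR). Of 14 naive pluripotency factors, Tbx3 (0.67) and Klf4 (0.34) rose and Zfp42 and Tcl1 (-0.48) fell.
Among the LIN28 and let-7 genes, 3 of 16 fell and none rose, with a median of -0.12. Lin28b, the relative of Lin28a, fell from 68.2 ± 7.33 CPM down to 46.7 ± 0.363 CPM (SD, n = 2 for both), with a log2 fold change of -0.54 (adjusted p = 0.00350, edgeR). Hmga2 (-0.51) and Igf2bp2 (-0.33), both well-known let-7 targets, also fell. Lin28a itself did not pass the test, and the difference between it and Lin28b was not tested.

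Genes of the 2-cell-like state, which act downstream of DPPA2 and DPPA4, gave the lowest median of these lists, -1.19. Of 9 tested members 7 fell, and 5 further members had too few reads. The largest falls were those of Usp17lb (-2.04), Usp17le (-1.84), Usp17la (-1.61) and Zscan4f (-1.56), none with more than 42 counts in a library. Reads can be split between close copies in these families, so that the value of any single copy is uncertain. The median of the list is the value of Usp17lc, which did not pass. Usp17lb, Usp17la, Usp17lc and Zscan4f had enough reads to be tested only through WT. In the knockout Zscan4f had 6 and 8 counts and Usp17lc had 7 and 15. Copies as low in both genotypes would be left out, so the number of falls and the median depend partly on this filter. Dppa2 and Dppa4 were at -0.16 and -0.13 in the same libraries.
Of the 11 genes of the DNA methylation machinery, among them the gene of UHRF1, which DPPA3 holds off chromatin, 2 rose and none fell. Dnmt3a, a de novo methyltransferase, rose from 306 ± 2.19 CPM up to 448 ± 5.59 CPM (SD, n = 2 for both), with a log2 fold change of 0.55 (SE 0.082, adjusted p = 6.81e-04, edgeR). Zfp57, which protects methylated imprints, was at 0.28 (adjusted p = 0.0484). Uhrf1 and Dnmt1, the factors of maintenance methylation, were named here after their values were seen and had log2 fold changes of 0.069 (95% interval -0.13 to 0.26) and 0.0022 (95% interval -0.18 to 0.19).

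In the list of SALL relatives and NuRD subunits, 2 of 14 genes fell and none rose. Both, Sall1 (-0.55) and the NuRD subunit gene Gatad2a (-0.50), lie on chromosome 8, whose median was -0.51. Of 16 tested POU and SOX relatives, 4 rose and 2 fell. The largest changes that passed were those of Sox18 (-1.32), Sox3 (0.90), Sox15 (0.82) and Pou3f1 (0.73). Each had a mean of at most 33.1 CPM in either genotype, far below the levels of Pou5f1 and Sox2. Sox18 had 31 and 32 counts in WT and 10 and 17 in the knockout, so it was tested only through the WT libraries. It counts among the 2 falls. Of 11 other pluripotency and oocyte genes, 3 rose and none fell. Khdc3, a KH-domain gene of the oocyte, went from 65.9 ± 9.62 CPM up to 110 ± 6.40 CPM (SD, n = 2 for both, log2 fold change 0.74, adjusted p = 5.94e-04, edgeR), and Eras (0.50) and Tex19.1 (0.36) followed.
Of 10 formative and primed genes, 5 rose and 1 fell, with a median of 0.49. Lef1, a factor of the Wnt pathway, rose from 5.06 ± 0.407 CPM up to 19.9 ± 1.03 CPM (SD, n = 2 for both, log2 fold change 1.97, adjusted p = 1.86e-06, edgeR). Wnt8a (1.54) and Sox3 rose and Zic2 fell. Wnt8a had 5 and 8 counts in WT and 19 and 22 in the knockout, so it was tested only through the knockout libraries. It counts among the 5 rises and in the median.

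**Figure D4:**
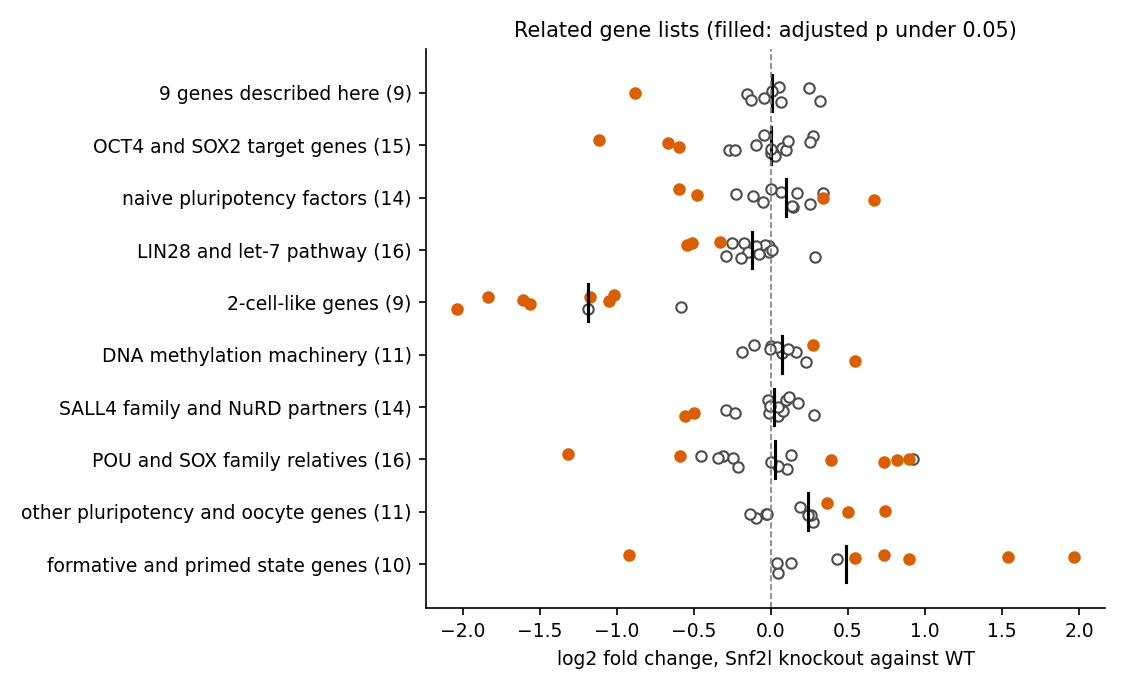
The log2 fold change of each tested gene in the 9 genes described here and in the 9 related lists, with the number of genes tested in parentheses, filled points for an adjusted p under 0.05 and a black bar at each list's median. The 9 genes have a median of 0.0083, the 2-cell-like genes -1.19 and the formative and primed genes 0.49.

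Markers of the embryonic stem cell and of other cell types were read beside these results. Rises and falls below are genes that passed the test, to be read against 9.21% of all genes tested. All 6 further stem cell markers were tested, with a summed level of 2378 to 2465 CPM in WT and 2439 to 2483 CPM in the knockout, and Klf4 rose while Zfp42 fell. Primitive endoderm markers rose in 4 of 6 tested genes, with a summed level of 16.1 to 17.0 CPM in WT and 27.0 to 27.3 CPM in the knockout. Trophoblast markers rose in 3 of 6, from 89.7 to 101 CPM in WT to 139 to 141 CPM in the knockout, with Elf5 at 1 count in every library.
Fibroblast markers rose in 2 of 5, from 11.2 to 13.4 CPM in WT to 24.98 to 25.7 CPM in the knockout, with Lum at 0 counts in all 4 libraries. Col3a1, which rose, had 4 and 8 counts in WT against 29 and 42 in the knockout. Col3a1, Postn and the trophoblast marker Cdx2 had enough reads to be tested only through the knockout libraries. Cdx2, with 4 and 8 counts in WT and 13 and 14 in the knockout, counts among the 6 tested trophoblast genes and in their sum. Neural markers fell in 4 of 4, from 208 to 230 CPM in WT to 128 to 135 CPM in the knockout, and 2 of these genes lie on chromosome 8. Mesendoderm markers had 2 tested genes, neither of which passed, with 3.52 to 3.75 CPM in WT and 2.86 to 3.63 CPM in the knockout. The part of these differences in the fall of Dppa3 was not tested.

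Dppa3, Utf1 and Dppa5a were set side by side over 13 processing alternatives, and none of the 3 genes changed direction in them.

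**Figure D5:**
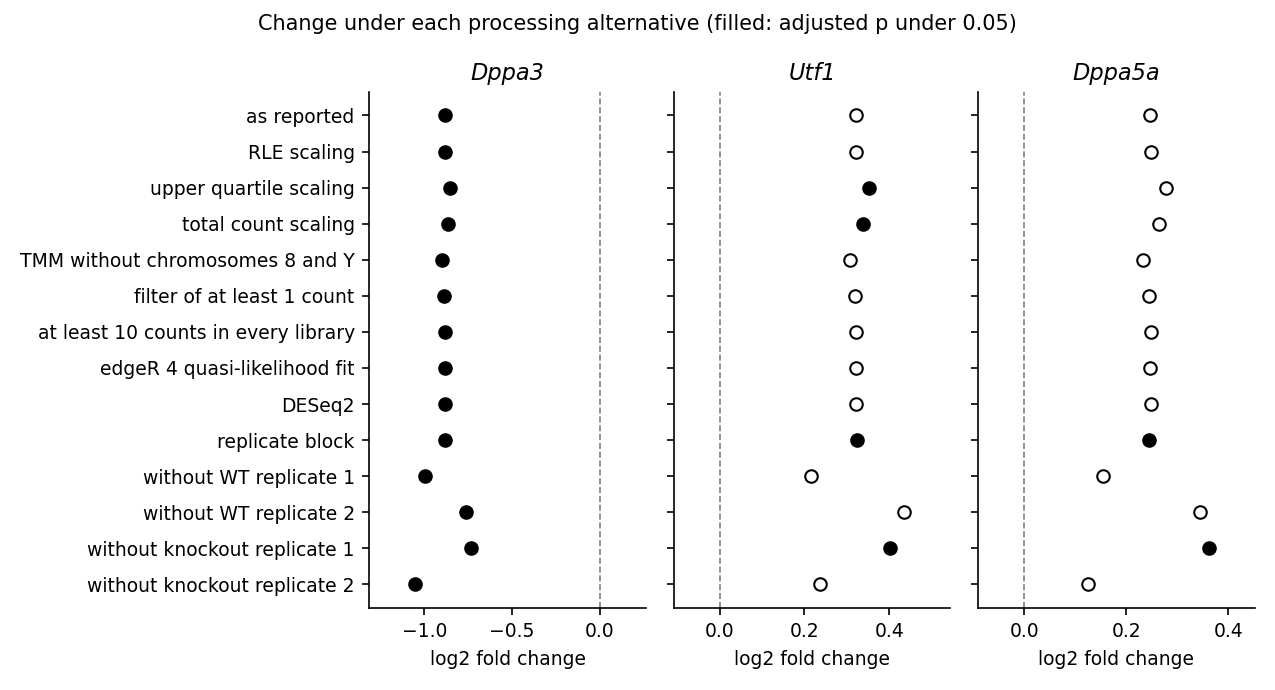
The log2 fold change of Dppa3, Utf1 and Dppa5a as reported and under 13 alternatives of scaling, filter, test, replicate block and libraries left out, filled where the adjusted p was under 0.05. Dppa3 lies between -1.05 and -0.73 throughout, Utf1 between 0.22 and 0.44 and Dppa5a between 0.13 and 0.36.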

How the data were processed

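RNA had been purified from WT and Snf2l knockout mESCs and sequenced as poly(A) libraries. The labels name a stranded kit and the methods an unstranded one. The authors aligned reads to mm10 with QuasR and HISAT2 and deposited raw counts per gene of the UCSC Known Genes, beside a gene length in bp. Of 24594 genes, 99.9% were matched by Entrez identifier to RefSeq symbols and positions (GRCm38.p6, the assembly of mm10). Exons, strands and shared 50-base words came from GENCODE M21.

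The deposited counts were tested with edgeR 4.0.16 under R 4.3.3 (filterByExpr, TMM, glmQLFit in its legacy form, glmQLFTest, genotype as the only term, two-sided, Benjamini-Hochberg over 13840 genes). SE was obtained from the fold change and the F statistic. CPM and RPKM used TMM-scaled library sizes. The study's model also had a batch term, which was left out because the labels give no batch. The procedure was tested on simulated data. Alternatives were 4 scalings, 2 filters, the edgeR 4 fit, DESeq2 1.42.0, the replicate number as a block, and each library left out in turn.

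The 9 genes, the lists and the markers were chosen with earlier results of these data known. Named are the 9 genes, Smarca1, the changed genes of each list (at most 4, by size of change), changed neighbours, and the 3 genes most like the member with the largest passing change. Any other gene was named after its values were seen.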

Additional observations from a re-analysis of the deposited data

How the results depend on the processing

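For the 9 genes 117 alternative values were computed, of which 106 kept their direction and their side of the threshold, 6 newly passed it and 5 turned their sign. The turned values are all near 0. Without WT replicate 1 Pou5f1 was at -0.018, without WT replicate 2 Sall4 was at -0.0043 and Lin28a at -0.013, without knockout replicate 2 Lin28a was at -0.056, and with TMM factors computed without chromosomes 8 and Y Lin28a was at -0.0051. Over the fits that leave out 1 library, Pou5f1 ranged from -0.018 to 0.15, Sall4 from -0.0043 to 0.11, Lin28a from -0.056 to 0.072, Utf1 from 0.22 to 0.44 and Dppa5a from 0.13 to 0.36. Utf1 newly passed with upper-quartile scaling (0.35) and total counts (0.34). With these scalings 2 of the 9 genes were called instead of 1. The number lay between 1 and 3 with 1 library left out. At the threshold of the study it was 0, and between 0 and 1 with 1 library left out (1 without knockout replicate 2).

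With DESeq2 799 genes were called in all, 88 of them differentially expressed by the rule of the study, 20 in the lists and 1 among the neighbours, against 1274, 137, 32 and 4. With 1 library left out the total lay between 829 (without WT replicate 1) and 1932 (without knockout replicate 1), the lists between 20 and 40 and the neighbours between 1 and 6 for the same libraries. With a filter of at least 1 count, which tests 18894 genes, 2 neighbours were called. Without a correction for length the order of WT levels was Pou5f1, Dppa5a, Lin28a, Sox2, Sall4, Utf1, Dppa2, Dppa4 and Dppa3. The cause of these differences was not tested.

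The labels number the replicates alike in both genotypes, but nothing says that equal numbers mark a shared culture or day. Across genes, libraries with equal numbers deviated from their group means with a correlation of 0.196, and 2 pairs do not establish a pairing. With the replicate block 3 of the 9 genes were called, Dppa3 with Utf1 (0.32, adjusted p = 4.20e-07) and Dppa5a (0.25, adjusted p = 6.91e-05), beside 3471 genes in all, 223 differentially expressed ones, 57 in the lists and 15 neighbours.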
